A study of Homo sapiens with 36 samples.

Results

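The HOX gene clusters carry microRNA genes between their coding genes, and the miRNAs described here are the mature 5p products of the miR-10 and miR-196 families that lie in them. The members are hsa-miR-10a-5p, hsa-miR-10b-5p, hsa-miR-196a-5p and hsa-miR-196b-5p (below miR-10a, miR-10b, miR-196a and miR-196b). They were chosen by family and genomic place and not by their measured values, though with earlier results of these data known. They are 4 of 509 miRNA names listed in the series. HOX proteins are transcription factors that set positional identity along the body axis, and cells keep part of their HOX pattern in culture. A miRNA guides Argonaute proteins to messenger RNAs, mostly through its seed, bases 2 to 8 from its 5′ end. The miR-196 family is known for pairing almost fully with the HOXB8 messenger RNA and directing its cleavage, and the miR-10 family is known for repressing HOX messenger RNAs such as HOXD10.

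Small RNA was sequenced in 36 libraries of 12 groups, 3 libraries in each, to ask what the gain of a chromosome does to miRNAs. HCT116 cells come from a colorectal carcinoma and are near-diploid, and RPE1 cells come from retinal pigment epithelium and carry telomerase. A line's name gives the gained chromosome and its copy number, c gives a clone, and an asterisk marks cells with a histone H2B-GFP fusion. HCT116 5/4, with 4 copies of chromosome 5, was compared with HCT116. The HCT116* libraries were the shared control of HCT116 18/3 c2, HCT116* 3/3 c11 and HCT116* 8/3 c7, which have 3 copies of chromosomes 18, 3 and 8. HCT116 18/3 c2 has no H2B-GFP by its name, and the study's list of cell lines gives HCT116 without the fusion as its parent. The HCT116* control is thus not its parent by that list. For this line the fusion and the gain cannot be told apart. RPE1 5/3 12/3, with 3 copies each of chromosomes 5 and 12, was compared with RPE1. RPE1* 7/3 and RPE1* 21/3, with 3 copies of chromosomes 7 and 21, each had its own set of RPE1* control libraries. In the study's list of cell lines HCT116 5/4 and its HCT116 control came from another laboratory than the HCT116 cells given H2B-GFP. Its methods text instead gives HCT116 as from a cell collection, and among HCT116 lines names only HCT116 5/4 as a gift. By the study's methods the other aneuploid lines were made by microcell transfer. The lines with a clone number each grew from a single cell. The chromosome 12 gain in RPE1 5/3 12/3 arose on its own, and RPE1* 7/3 had also gained chromosomes 9 and 12 on its own, which its name does not show.

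The authors' deposited tables hold 1 comparison each, with the mean of the normalised counts over 6 libraries, the log2 fold change (line over control), the standard error (SE) of it and a DESeq2 p-value. They hold no values of single libraries. The spread between libraries is therefore seen only through the SE, and no library can be checked or left out. The control and line levels given below were worked out from the mean and the fold change, and are stated as normalised counts or as RPM, that is, scaled so that all listed miRNAs of the group sum to 1000000. RPM, shares and ranks are thus relative to the listed miRNAs and not to all miRNAs of the cells. In the HCT116 lines nearly all tested names that give an arm were 5p. The 7 tables list 273 to 434 miRNAs with a summed mean of 5556870 to 11221232. Of 7 colon epithelial marker miRNAs, 7 were listed in every HCT116 table (summed level 1886 to 3225 RPM) and 3 to 4 in the RPE1 tables (172 to 276 RPM). The pigment epithelial markers miR-204-5p and miR-211-5p together were at 332 to 1983 RPM in RPE1 groups and at 2.15 to 4.71 in HCT116 groups. Of the blood cell markers 1 was listed in the HCT116 tables, at 1.10 to 53.6 RPM, and 0 in the RPE1 tables. Of the non-epithelial markers 2 to 4 were listed in HCT116 tables (139 to 409 RPM) and 3 in RPE1 tables (1.77 to 158 RPM).

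The mature sequences show how the families are related. They come from RefSeq (GRCh38.p14), are written 5′ to 3′, and have the seed in capitals. MiR-10b was missing from the sequences used here, so its bases were not compared with those of miR-10a. The members found there are followed by miR-100, a relative of miR-10 that lies outside the HOX clusters and had the highest level among those relatives here.
hsa-miR-10a-5p: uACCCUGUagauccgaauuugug
hsa-miR-196a-5p: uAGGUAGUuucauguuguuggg
hsa-miR-196b-5p: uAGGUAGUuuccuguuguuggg
hsa-miR-100-5p: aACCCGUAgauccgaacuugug
The miR-196 members are identical at 21 of 22 bases and differ by A12C, counted from the 5′ end, with the miR-196a base first. The difference lies outside the seed, so both read the same seed AGGUAGU. No mature miRNA other than these 2 has that seed among the 2370 in the table. The same 7 letters do occur at bases 3 to 9 of 8 of 9 let-7 family entries, 1 base further in than in miR-196, as the capitals in let-7a show.
hsa-let-7a-5p: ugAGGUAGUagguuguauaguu

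The 4 miRNAs come from 5 loci in all 4 HOX clusters. MIR10A lies in the HOXB cluster on the minus strand of chromosome 17 (GRCh37, 46657200 to 46657309), in an intron of HOXB3 transcripts, 1487 bp from HOXB4 and 11309 bp from HOXB5. MIR10B lies in the HOXD cluster on the plus strand of chromosome 2 (177015031 to 177015140), in an intron of HOXD3 and 1137 bp from HOXD4. Mature miR-196a can come from 2 loci that its reads do not tell apart. MIR196A1 lies on the minus strand of chromosome 17 (46709852 to 46709921), in an intron of a noncoding HOXB7 transcript and 6131 bp from HOXB9. MIR196A2 lies in the HOXC cluster on the plus strand of chromosome 12 (54385522 to 54385631), in an intron of HOXC6, between HOXC10 at 1458 bp and HOXC9 at 3047 bp. MIR196B lies in the HOXA cluster on the minus strand of chromosome 7 (27209099 to 27209183), within noncoding transcripts of HOXA9 and 1040 bp from HOXA10. Only 2 of these loci are on a chromosome that a line's name marks as gained. They are MIR196B in RPE1* 7/3 and MIR196A2 in RPE1 5/3 12/3. MIR196A2 also lies on the chromosome 12 that RPE1* 7/3 gained beyond its name.

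All 4 miRNAs had a higher share in the HCT116 controls than in the RPE1 controls. MiR-10a stood at 35764 RPM in HCT116 and 39269 to 39417 in HCT116*, where it ranked 4 among the listed miRNAs in each table. In the RPE1 controls it stood at 1107 RPM in RPE1 and at 6375 and 3394 in the RPE1* controls of 7/3 and 21/3. The lowest HCT116 control was 5.61-fold above the highest RPE1 control. That distance, 2.49 on the log2 scale, was 1.21 when levels were taken relative to the median of the 205 miRNAs listed in all 7 tables. MiR-10b stood at 2269 RPM in HCT116, 3631 to 3646 in HCT116*, 24.0 in RPE1 and 80.0 and 42.8 in the RPE1* controls, so the cell types were at least 28.4-fold apart. MiR-196a stood at 147 RPM in HCT116, 134 to 135 in HCT116*, 0.941 in RPE1 and 5.97 and 7.24 in the RPE1* controls. MiR-196b stood at 369 RPM in HCT116 and 139 to 140 in HCT116*. Its only RPE1 control value was 0.537 RPM, in the RPE1* control of 7/3. In RPE1* 21/3, as in RPE1 5/3 12/3, miR-196b was not listed, and the lowest means listed in these tables were 4.67 and 4.58 normalised counts. The order was thus miR-10a, miR-10b and then the miR-196 members in each control. These levels come from separate tables and were not tested against each other. Levels of different miRNAs also carry the efficiency with which each is ligated and read.

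The HCT116* level could be worked out from 3 tables, and these agreed to within 1.01-fold in RPM for every member. The control sets differed more. MiR-196b had a share 2.63 to 2.65-fold higher in HCT116 than in HCT116*, and miR-10b had 0.622 to 0.625 times the HCT116* share. The RPE1* controls of 7/3 and 21/3 have the same label but were separate libraries, and in the former the share was 1.88-fold higher for miR-10a and 1.87-fold higher for miR-10b.

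**Figure D1:**
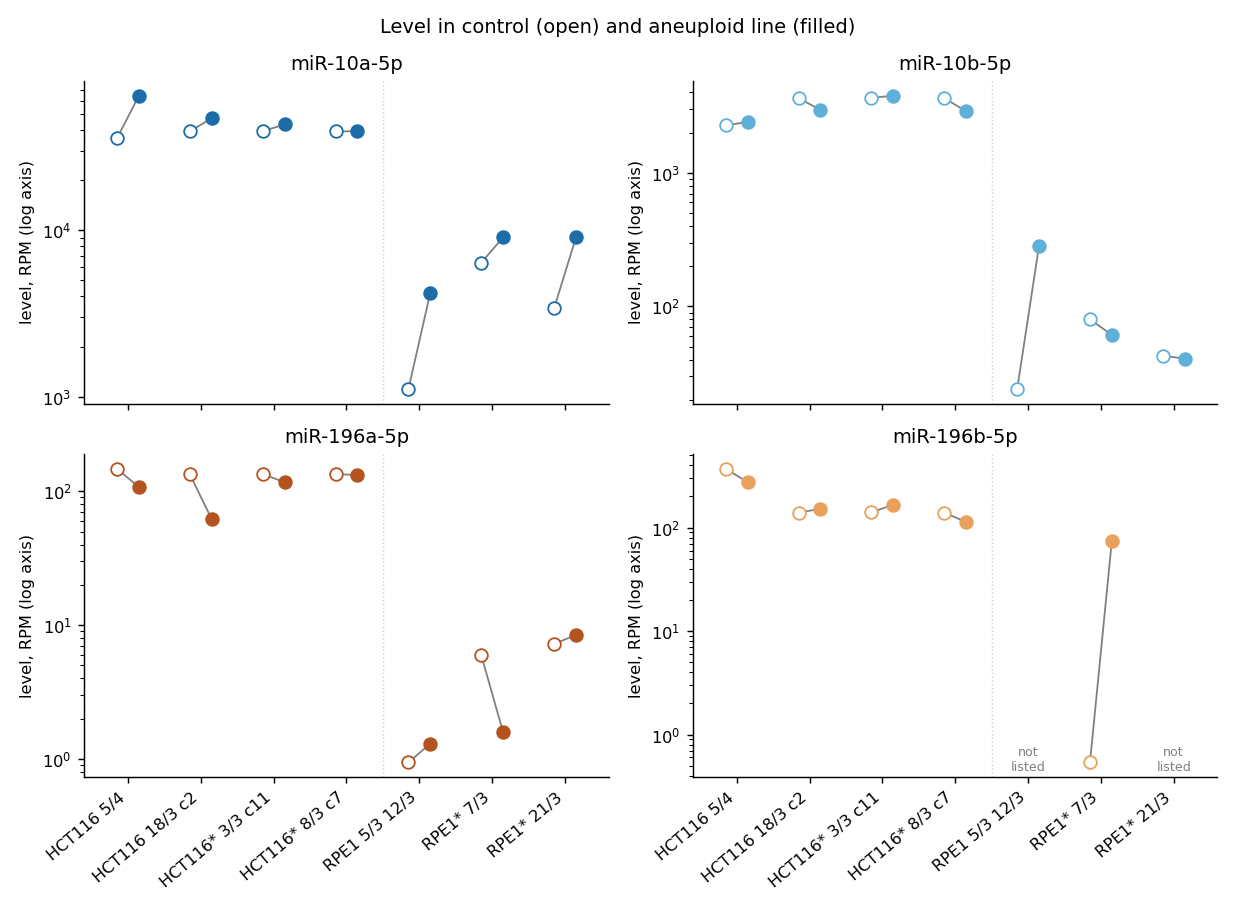
Level of each miRNA in RPM (log axis, a separate range per panel) in the control group (open) and the aneuploid line (filled) of each deposited table, worked out from the mean and fold change; a dotted line divides HCT116 from RPE1. MiR-10a was at 35764 RPM or more in all HCT116 groups and at 9087 or less in all RPE1 groups, and miR-196b went from 0.537 to 74.3 RPM in RPE1* 7/3.

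The calls in the aneuploid lines differed by member and by line. A miRNA was tested at a mean of at least 10 and called where the listed adjusted p was under 0.05 and the log2 fold change was 0.6 or more in size. Of 28 combinations of member and line 26 were listed, and all 26 reached the mean. Of these, 8 were called (30.8%), 6 higher and 2 lower. Over all tested miRNAs of the 7 lines, 17.3% of values were called, 10.1% higher and 7.27% lower. The median log2 fold change of the members was 0.22 and that of all 1816 tested values was -0.01. MiR-10a was called in 3 lines and miR-10b in 2, always higher. MiR-196a was called in 2 lines, always lower, and miR-196b in 1, higher. By the adjusted p alone 13 of 26 values passed, against 25.7% of all tested. In HCT116 5/4 miR-10a and miR-10b were called higher, as were 18.5% of the miRNAs tested there. Both were also called higher in RPE1 5/3 12/3, where 16.9% were. RPE1* 21/3 had 1 higher call, of miR-10a, against 3.90% of tested miRNAs. RPE1* 7/3 had 1 higher call, of miR-196b, against 7.29%, and 1 lower call, of miR-196a, against 5.67%. HCT116 18/3 c2 had 1 lower call, of miR-196a, against 9.29%. No members were called in HCT116* 3/3 c11 or HCT116* 8/3 c7, where 9.68% and 15.0% of tested miRNAs were called in either direction. With a t distribution on 2 or 4 residual degrees of freedom in place of the normal, which does not use that DESeq2 pools the spread over miRNAs, 1 call remained, of miR-196b in RPE1* 7/3.

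**Figure D2:**
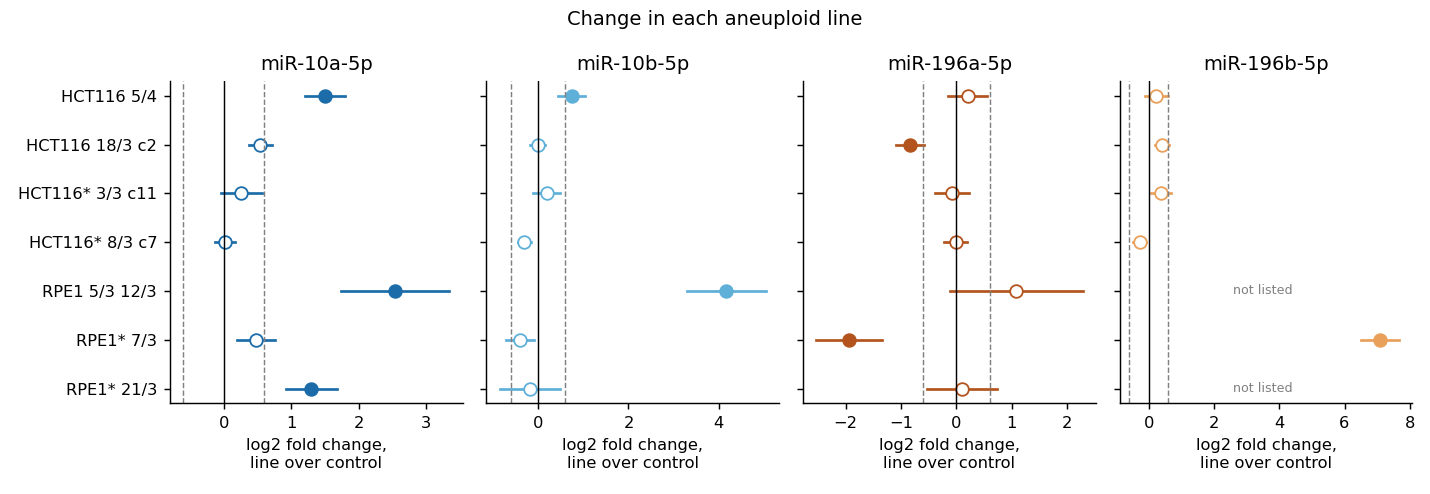
Log2 fold change of each miRNA in each line over its control, with 95% intervals from the deposited SE and a separate axis range per panel. Filled points were called, dashed lines mark the limit of 0.6 in either direction, and all 7 values of miR-10a lie above 0, from 0.03 to 2.54.

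MiR-10a, the most abundant member, had a log2 fold change above 0 in all 7 lines and was called higher in 3 of them. In HCT116 5/4 it went from 154516 to 437817 normalised counts, a log2 fold change of 1.50 (SE 0.15, DESeq2 adjusted p = 6.82e-22). In RPE1 5/3 12/3 it went from 7971 to 46320, a log2 fold change of 2.54 (SE 0.41, DESeq2 adjusted p = 5.89e-08). In RPE1* 21/3 it went from 28475 to 69894, a log2 fold change of 1.30 (SE 0.19, DESeq2 adjusted p = 1.66e-09). These are 2.83, 5.81 and 2.45-fold. In RPE1 5/3 12/3 it ranked 4 of 237 tested miRNAs by the size of its change, and in RPE1* 21/3 it ranked 8 of 231.

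In HCT116 18/3 c2 and RPE1* 7/3 miR-10a passed the adjusted p but not the fold limit. The log2 fold changes were 0.54 (SE 0.09, DESeq2 adjusted p = 8.29e-09) and 0.48 (SE 0.14, DESeq2 adjusted p = 0.00645). In HCT116* 3/3 c11 the value was 0.26 (95% interval -0.04 to 0.57) and in HCT116* 8/3 c7 it was 0.03 (-0.12 to 0.18), neither past the threshold. The 4 HCT116 lines spanned 39462 to 64448 RPM of miR-10a. No gained chromosome by name carries MIR10A.

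The change of miR-10a in RPE1* 21/3 was larger than in RPE1* 7/3 by 0.81 on the log2 scale (95% interval of 7/3 minus 21/3 -1.28 to -0.34, Wald adjusted p = 0.00117 over 21 differences between lines built from the DESeq2 estimates). The lines themselves ended at 9052 and 9087 RPM. Their control sets stood at 3394 and 6375 RPM. The levels thus differed more between the control sets than between the lines. Whether the library sets differ in preparation was not tested.

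MiR-10b is encoded in another HOX cluster than miR-10a and was called higher in HCT116 5/4 and RPE1 5/3 12/3. In RPE1 5/3 12/3 it went from 172 to 3113 normalised counts, 18.1-fold, a log2 fold change of 4.17 (SE 0.45, DESeq2 adjusted p = 2.86e-18). This was the largest change in either direction among the 237 tested miRNAs of that line. It took miR-10b from 24.0 to 282 RPM, still below the 2269 RPM of the lowest HCT116 control.

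In HCT116 5/4 miR-10b went from 9801 to 16338 normalised counts, a log2 fold change of 0.74 (SE 0.16, DESeq2 adjusted p = 2.27e-05). This call was lost in a test against a log2 fold change of 0.6, and on the share scale. The summed level of all listed miRNAs was higher in HCT116 5/4 than in its control by 0.65 on the log2 scale, and as a share of that sum miR-10b went from 2269 to 2405 RPM, a log2 change of 0.08 (Wald adjusted p = 0.661). Tests on the share scale kept the deposited SE and took the summed level as known without error. MiR-100 alone made up 213895 RPM of the control, and its own log2 fold change was 0.76 with an SE of 0.69. The miR-10a change in this line was 0.85 on the share scale and stayed called. In RPE1 5/3 12/3, where the summed level was higher by 0.62, the share changes were 1.92 for miR-10a and 3.56 for miR-10b. In the other lines the summed level moved by -0.12 to 0.28.

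In the remaining lines miR-10b was not called, and its values leaned below 0. In HCT116 18/3 c2 the value was -0.02, and in HCT116* 3/3 c11 it was 0.18. The others were -0.31 in HCT116* 8/3 c7 (SE 0.07, DESeq2 adjusted p = 0.000246, short of the fold limit), -0.42 in RPE1* 7/3 (SE 0.16, DESeq2 adjusted p = 0.0617) and -0.19 in RPE1* 21/3 (SE 0.34). In RPE1* 21/3 the 95% interval ran from -0.86 to 0.47, which holds a decrease of the size of the fold limit but not an increase of that size.

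The miR-10 members moved apart in most lines. The difference of the log2 fold changes, miR-10a minus miR-10b, passed the threshold in 6 of 7 lines (Wald test on the DESeq2 estimates, adjusted over 12 differences between members). With a t distribution 2 of these 6 were past it, HCT116 18/3 c2 (adjusted p = 0.0397) and RPE1* 7/3 (adjusted p = 0.041). The difference was above 0 in 5 of the 6. The largest was 1.49 in RPE1* 21/3 (95% interval 0.73 to 2.25, Wald adjusted p = 0.000314), where miR-10a was called higher and miR-10b stood at 359 and 313 normalised counts in control and line. The others were 0.90 in RPE1* 7/3 (Wald adjusted p = 7.87e-05), 0.77 in HCT116 5/4 (Wald adjusted p = 0.000874), 0.56 in HCT116 18/3 c2 (Wald adjusted p = 1.59e-05) and 0.34 in HCT116* 8/3 c7 (Wald adjusted p = 0.00253). In RPE1 5/3 12/3 the sign was opposite, at -1.64 (95% interval -2.82 to -0.45, Wald adjusted p = 0.0105). In HCT116* 3/3 c11 the difference was 0.08 (95% interval -0.34 to 0.51, Wald adjusted p = 0.771).

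As a ratio of levels, which a common scaling of a group leaves as it is, miR-10a over miR-10b was 15.8 in HCT116 and 10.8 in HCT116* by each of its 3 tables. It was 46.2 in RPE1, 79.7 in the RPE1* control of 7/3 and 79.4 in that of 21/3. The RPE1* control sets thus had nearly the same ratio although their miR-10a shares were 1.88-fold apart. The ratio fell to 14.9 in RPE1 5/3 12/3, inside the range of the HCT116 groups, and rose to 148 in RPE1* 7/3 and 223 in RPE1* 21/3. In HCT116 18/3 c2 it was 16.0, near the 15.8 of HCT116 cells without H2B-GFP and above the 10.8 of the HCT116* control with which this line was compared. The HCT116 and HCT116* values come from different tables and their difference was not tested. MiR-10a was the more abundant member in every group, and whether some of its reads were counted for miR-10b was not tested.

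**Figure D3:**
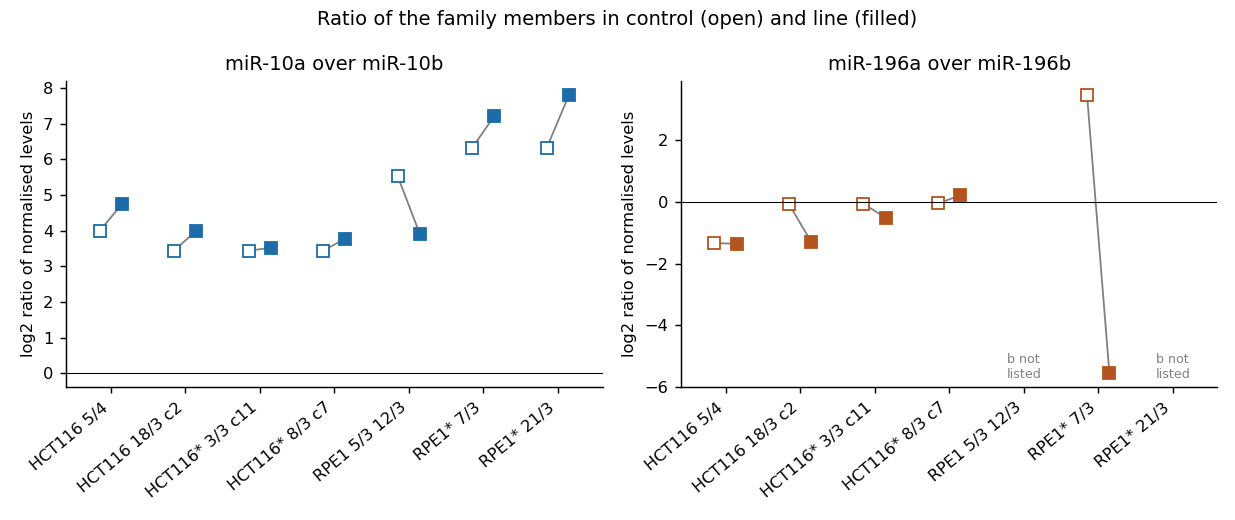
Log2 ratio of the levels of miR-10a over miR-10b (left) and miR-196a over miR-196b (right) in the control (open) and line (filled) of each table; 0 marks equal levels. The miR-10 ratio was lower in RPE1 5/3 12/3 than in its control and higher in the other lines (in HCT116* 3/3 c11 not past the threshold), and the miR-196 ratio went from 3.47 to -5.55 in RPE1* 7/3.

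MiR-196b had the largest change of any member. In RPE1* 7/3 it went from 6.09 to 825 normalised counts, a log2 fold change of 7.08 (SE 0.30, DESeq2 adjusted p = 8.75e-120), and it ranked 2 of 247 tested miRNAs by the size of its change. Its control level is low, and if a normalised count stands for 1 read, counting error alone would give an SE of 0.34, above the deposited one. MIR196B lies on chromosome 7, which this line holds in 3 copies. Against 2 copies in the control the copy ratio is 0.58 on the log2 scale. The 95% interval of the change, from the deposited SE, was 6.49 to 7.67. The part of the copy number in this change was not tested. The line level of 74.3 RPM was below all HCT116 groups, where miR-196b stood at 113 to 369 RPM.

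The HCT116 lines gave no call of miR-196b. HCT116 5/4 had 0.23 (SE 0.18), which on the share scale turned to -0.42 (Wald adjusted p = 0.0363, short of the fold limit). HCT116 18/3 c2 had 0.39 (SE 0.11, DESeq2 adjusted p = 0.00176). The values were 0.37 in HCT116* 3/3 c11 (SE 0.15, DESeq2 adjusted p = 0.0721) and -0.28 in HCT116* 8/3 c7 (SE 0.10, DESeq2 adjusted p = 0.0343). The levels lay between 113 and 276 RPM in the lines and between 139 and 369 RPM in the controls, across tables and without a test.

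MiR-196a was called lower in HCT116 18/3 c2 and RPE1* 7/3 and higher in no line. In HCT116 18/3 c2 it went from 964 to 540 normalised counts, a log2 fold change of -0.84 (SE 0.13, DESeq2 adjusted p = 1.68e-09), a call that was lost in a test against a log2 fold change of 0.6. In RPE1* 7/3 it went from 67.6 to 17.6, a log2 fold change of -1.94 (SE 0.30, DESeq2 adjusted p = 4.47e-09), and it ranked 5 of 247 tested miRNAs by the size of its change. This is the line in which miR-196b was called higher, and by the study's methods it had gained chromosome 12, which carries MIR196A2. The summed non-epithelial markers were at 16.1 RPM in the control and 1.77 in this line, and the pigment epithelial markers at 931 and 1983 RPM. The part of these differences in the miR-196 values was not tested. The difference between the members, miR-196a minus miR-196b, was -9.02 there (95% interval -9.86 to -8.19, Wald adjusted p = 2.47e-98), and miR-196a went from 91.7% to 2.09% of the summed miR-196 level. The summed level was 73.7 normalised counts in the control and 843 in the line. Since the members differ at 1 base, reads with an error there can be counted for the wrong member, and this was not tested.

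In RPE1 5/3 12/3, whose name gives 3 copies of chromosome 12 with MIR196A2, miR-196a stood at 6.77 normalised counts in the control and 14.3 in the line. Its log2 fold change was 1.08 with an SE of 0.61 (95% interval -0.12 to 2.28, DESeq2 adjusted p = 0.205). The interval holds both 0 and the copy ratio of 0.58, so a change of the size of the copy number was not detectable at this depth. The mean of 10.6 is just over the minimum for testing. In the remaining lines miR-196a was not called, with values of 0.21 in HCT116 5/4 (SE 0.18, but -0.45 on the share scale, Wald adjusted p = 0.0237 and short of the fold limit), -0.08 in HCT116* 3/3 c11 (SE 0.16), -0.01 in HCT116* 8/3 c7 (SE 0.11) and 0.10 in RPE1* 21/3 (SE 0.33).

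MiR-196a made up a smaller part of the miR-196 level in the 3 HCT116 groups without H2B-GFP than in the 3 with it, across tables and without a test of that order. It made up 28.5% of the summed level in HCT116 and 28.1% in HCT116 5/4, a difference between the members of -0.03 (95% interval -0.52 to 0.47, Wald adjusted p = 0.916). In HCT116* it made up 48.9% to 49.2%. In HCT116 18/3 c2, which has no H2B-GFP by its name, the share was 29.0%, and the difference between the members against HCT116* was -1.23 (95% interval -1.56 to -0.90, Wald adjusted p = 1.31e-12). The ratio of the members in this line was near that of HCT116, as was the miR-10 ratio. The levels were not, since miR-196b stood at 152 RPM in HCT116 18/3 c2, 369 in HCT116 and 140 in HCT116* (by the table of this line), and miR-196a at 61.9, 147 and 134 RPM. H2B-GFP and the source of the HCT116 cells, on which the study's statements differ, cannot be told apart between HCT116 and HCT116*. No table compares HCT116 18/3 c2 with HCT116, and whether its calls would hold against that control was not tested. The H2B-GFP lines HCT116* 3/3 c11 and HCT116* 8/3 c7 had 41.2% and 53.8% miR-196a, with differences of -0.45 (Wald adjusted p = 0.0549) and 0.27 (Wald adjusted p = 0.089).

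**Figure D4:**
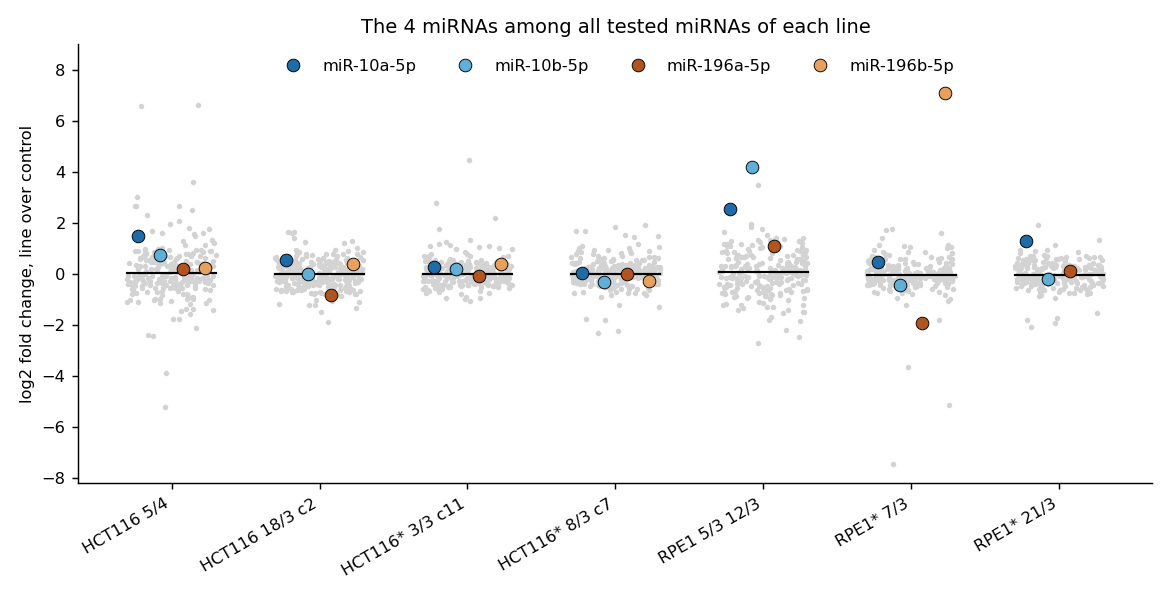
Log2 fold change of every tested miRNA in each line over its control (grey, spread sideways at random; the bar is the median of all tested miRNAs) with the 4 miRNAs in colour. The medians lie between -0.06 and 0.07, miR-10b is the highest point in RPE1 5/3 12/3 at 4.17, and miR-196a and miR-196b lie at -1.94 and 7.08 in RPE1* 7/3.

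Few of the remaining miRNAs of the HOX clusters were listed. Of the other arms of the members and of miR-615, which lies in the HOXC cluster, only hsa-miR-615-5p was listed. It appeared in 3 tables, all of HCT116 lines, at means of 5.16, 8.89 and 9.68 normalised counts, below the minimum for testing. In the HCT116 lines nearly all tested names that give an arm were 5p. The absence of the other arms therefore does not show that they were scarce.

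The relatives of miR-10 outside the HOX clusters, miR-99a, miR-99b and miR-100, gave 4 calls among 21 tested values, all higher (10.1% of all tested values were), with a median log2 fold change of 0.03. All 4 calls were of miR-99a, at 0.89 in HCT116 5/4 (SE 0.17), 0.71 in HCT116 18/3 c2 (SE 0.09), 0.69 in RPE1 5/3 12/3 (SE 0.27) and 0.93 in RPE1* 21/3 (SE 0.18). The lines in which miR-10a was called were thus all among those in which miR-99a was called. As a share, miR-99a went from 240 to 282 RPM in HCT116 5/4 and from 722 to 975 RPM in HCT116 18/3 c2. In RPE1 5/3 12/3 it went from 1017 to 1071 RPM. These share changes were short of the fold limit, so the miR-99a calls in these lines would be lost on the share scale. In RPE1* 21/3 miR-99a went from 1177 to 2436 RPM. Whether the miR-99a call in RPE1* 21/3 holds on the share scale was not tested. MiR-100 was called in no line, with a log2 fold change of 0.83 in RPE1 5/3 12/3 (SE 0.64) and -0.12 in RPE1* 21/3 (SE 0.18). The let-7 family, which holds the miR-196 seed letters shifted by 1 base, gave 6 higher and 3 lower calls among 63 tested values, beside 10.1% and 7.27% of all tested values, with a median of -0.02. In RPE1* 7/3, where miR-196b was called higher, 0 of its 9 members were called higher and 1 lower.

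Likeness to the pattern of a member was measured as the root mean square difference of the log2 fold changes over the 7 lines, among 173 miRNAs tested in every line. Nearest to miR-10a were miR-139-5p at 0.72, miR-125b-5p at 0.79 and miR-26a-5p at 0.86, against a median of 1.31 over all compared miRNAs. Nearest to miR-10b was miR-10a at 0.98, followed by miR-3913-5p and miR-378c at 1.08 each, against a median of 1.66. Nearest to miR-196a were miR-1262 at 0.64, miR-378c at 0.65 and miR-629-5p at 0.66, against a median of 0.99. MiR-196b was not listed in every table and has no such value. Lines that share the HCT116* control share part of their error, so these 7 points are not independent.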

How the data were processed

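Per the study's methods, the authors trimmed adapters with cutadapt, mapped reads to hg19, counted mature miRNAs of miRBase with mirdeep2 and ran DESeq2 (the versions of cutadapt and DESeq2 are not given in the sources used here) per line against its control, with a replicate term in HCT116 5/4, RPE1* 21/3 and also RPE1 5/3 12/3. The deposited mean is a signal, the average over 6 libraries of counts after division by size factors. The deposited log2 fold change, its standard error, its score (their ratio), the p-value and the adjusted p-value are the authors' comparison; all tests of a line use them, since no values of single libraries were at hand. With mean m and fold change F, the control level is 2m/(1 + F). In the 3 lines with a replicate term F need not equal the ratio of the group means, so the levels there are approximate. Differences were tested with a two-sided Wald z, taking the covariance as 0, with Benjamini-Hochberg adjustment; 12 of the differences between members could be formed. The calculations were tested on simulated data. Named miRNAs are the members, the HOX, miR-10 and let-7 lists and the 3 nearest by likeness. The members and lists were chosen with earlier results of these data known. Hairpins were placed by GENCODE 44 on GRCh37; MIR10A was placed by a match of its RefSeq hairpin. The 3 libraries of a group are called biological replicates in the study's methods. Python 3.11.15, numpy 2.4.6, pandas 2.3.3 and scipy 1.17.1 were used.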

Additional observations from a re-analysis of the deposited data

Results flagged for a closer look

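The changes of a member differed between lines of the same cell type with separate controls in 15 of 21 comparisons (Wald test on the DESeq2 estimates, adjusted over the 21). For miR-10a this held in all 6. The comparisons are not independent of each other. Every HCT116 pair sets HCT116 5/4 against a line with the shared HCT116* control, and the RPE1 pairs reuse the same lines. HCT116 5/4 exceeded HCT116 18/3 c2 by 0.96, HCT116* 3/3 c11 by 1.24 and HCT116* 8/3 c7 by 1.48 on the log2 scale. RPE1 5/3 12/3 exceeded RPE1* 7/3 by 2.06 and RPE1* 21/3 by 1.24, and RPE1* 7/3 minus RPE1* 21/3 was -0.81. On the share scale the miR-10a changes were 0.85 in HCT116 5/4 and 0.01 to 0.26 in the other HCT116 lines. They were 1.92 in RPE1 5/3 12/3, 0.51 in RPE1* 7/3 and 1.42 in RPE1* 21/3.

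For miR-10b HCT116 5/4 exceeded HCT116 18/3 c2 by 0.76, HCT116* 3/3 c11 by 0.56 and HCT116* 8/3 c7 by 1.05. As shares, the changes were 0.08 in HCT116 5/4 and -0.30, 0.05 and -0.33 in the other lines, in the order named. The miR-10b change of RPE1 5/3 12/3 exceeded that of RPE1* 7/3 by 4.59 and that of RPE1* 21/3 by 4.37. The share changes were 3.56 in RPE1 5/3 12/3, -0.39 in RPE1* 7/3 and -0.07 in RPE1* 21/3.

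For miR-196a HCT116 5/4 exceeded HCT116 18/3 c2 by 1.04, RPE1 5/3 12/3 exceeded RPE1* 7/3 by 3.02, and RPE1* 7/3 minus RPE1* 21/3 was -2.04. For miR-196b HCT116 5/4 exceeded HCT116* 8/3 c7 by 0.51. In these pairs the lines differ in derivation and control set as well as in the gained chromosome, and these cannot be told apart. On the share scale miR-196b changed by -0.42 in HCT116 5/4 and by -0.30 in HCT116* 8/3 c7, the reverse order. MiR-196a changed by -0.45 in HCT116 5/4 and by -1.11 in HCT116 18/3 c2. Whether the differences between lines hold on the share scale was not tested. The RPE1* 7/3 and RPE1* 21/3 comparison of miR-10a is the pair whose control sets were 1.88-fold apart while the lines stood at 9087 and 9052 RPM.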

How the results depend on the processing

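Of the 26 member values 2 changed sign under 1 of the 9 alternatives run, share normalization, miR-196a and miR-196b in HCT116 5/4, which turned to -0.45 and -0.42 (Wald adjusted p = 0.0237 and 0.0363) without reaching the fold limit. No paired analysis was possible because the deposited tables hold no values of single libraries, and leaving out each library was not run for the same reason. Without a minimum mean, with p-values adjusted over the tested miRNAs alone, and with fold changes centred on the median, all 26 kept their call. A minimum mean of 100 left 1 lower call, losing miR-196a in RPE1* 7/3. Without a fold limit miR-10a had 5 higher calls, miR-10b 1 lower, miR-196b 2 higher and 1 lower, and the members 4 lower in all. A fold limit of 1, or a test against a log2 fold change of 0.6, left 1 higher call of miR-10b and 1 lower call of miR-196a, which was then the 1 lower call in all; miR-10b in HCT116 5/4 and miR-196a in HCT116 18/3 c2 were lost. Share normalization left 1 higher call of miR-10b, and its tests took the summed level as known without error. A t distribution with 2 or 4 residual degrees of freedom, which ignores that DESeq2 pools the spread over miRNAs, left 0 calls of miR-10a, 0 of miR-10b and 0 of miR-196a, so 1 higher call (miR-196b in RPE1* 7/3) and 0 lower calls in all, and 4 of 12 differences between members past the threshold. Of 21 differences between lines, 12 passed with a t distribution and 15 after centring, and a correlation of 0.5 between estimates gave 10 differences between members. These values moved by the construction of each alternative. Depth limits miR-196a and miR-196b in RPE1 groups, with control levels of 6.09 to 67.6 normalised counts.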
